A study of Homo sapiens with 30 samples.

Results

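The 10 genes described here are PER1, PER2, PER3, CRY1, CRY2, CLOCK, NR1D1, NR1D2, DBP and TEF, which encode parts of the circadian clock. They were taken by name from a count table of 58780 genes and followed through 15 treatment groups of 2 samples each, 30 samples in all. The cells were A549, a human lung carcinoma line, and the assay was PRO-seq, in which permeabilised cells extend and label the RNA that polymerases are making, so that counts follow ongoing transcription and not stored mRNA. Dexamethasone (Dex), a synthetic glucocorticoid, was used at 100 nM, and the inhibitors GSK591, which blocks the arginine methyltransferase PRMT5, and MS023, which blocks type I arginine methyltransferases, at 1 µM each.

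The groups were untreated cells held for 15 min in 0.01% DMSO, the vehicle that every group received, Dex for 15 min, Dex for 3 h, Dex with GSK591 for 3 h, and Dex with MS023 for 3 h. Each inhibitor was also given alone for 2, 4 or 7 days, and 7 days of each inhibitor came before Dex treatments of 15 min and 3 h. The labels name 1 untreated group, matched to the 15 min time, give no time of day and mention no step that aligned the clocks of the cells. Treatment and hours or days in culture therefore cannot be told apart in comparisons of the longer treatments with untreated cells. In such bulk samples, fewer cells transcribing a gene and less transcription per cell cannot be told apart either. The labels give a flask of cells per sample and no separate days, so that p-values measure only the spread between these samples, which may be technical.

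The circadian clock is a feedback loop of transcription. CLOCK pairs with BMAL1 and activates genes through E-box sequences. PER and CRY proteins accumulate, enter the nucleus and repress that pair, and so repress their own genes. The REV-ERB receptors, encoded by NR1D1 and NR1D2, repress genes through ROR elements, and DBP and TEF activate genes through D-boxes. Glucocorticoids reset this loop in peripheral tissues, the lung among them, and PER1 is a textbook target gene of the glucocorticoid receptor.

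The promoters of the genes that moved most with Dex, PER1, PER2, CRY1 and CRY2, are shown because transcription of these genes was what the assay read. Each sequence holds the 250 bases before a RefSeq start site in GRCh38.p14, 5′ to 3′ on the strand of the gene. Capitals mark an E-box (CACGTG) or AGGTCA, the core letters of a ROR element, which read TGACCT on the other strand. PER1 lies at chr17:8152405-8152654, minus strand, PER2 at chr2:238288611-238288860, minus strand, CRY1 at chr12:107093550-107093799, minus strand, and CRY2 at chr11:45847225-45847474, plus strand.
PER1: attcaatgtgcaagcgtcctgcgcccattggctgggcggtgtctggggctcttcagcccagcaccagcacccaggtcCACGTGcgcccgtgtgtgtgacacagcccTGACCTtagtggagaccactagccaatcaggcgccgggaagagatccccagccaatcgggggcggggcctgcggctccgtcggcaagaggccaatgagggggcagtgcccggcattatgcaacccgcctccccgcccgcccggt
PER2: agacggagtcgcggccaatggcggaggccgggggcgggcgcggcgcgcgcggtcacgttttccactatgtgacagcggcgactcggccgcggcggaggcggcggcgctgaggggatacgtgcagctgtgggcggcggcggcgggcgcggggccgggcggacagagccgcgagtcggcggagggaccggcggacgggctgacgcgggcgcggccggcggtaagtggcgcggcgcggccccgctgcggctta
CRY1: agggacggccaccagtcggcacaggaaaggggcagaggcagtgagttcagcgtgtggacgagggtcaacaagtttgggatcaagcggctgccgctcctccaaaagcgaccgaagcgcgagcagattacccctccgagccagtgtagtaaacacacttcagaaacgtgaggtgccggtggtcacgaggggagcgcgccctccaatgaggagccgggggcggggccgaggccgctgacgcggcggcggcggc
CRY2: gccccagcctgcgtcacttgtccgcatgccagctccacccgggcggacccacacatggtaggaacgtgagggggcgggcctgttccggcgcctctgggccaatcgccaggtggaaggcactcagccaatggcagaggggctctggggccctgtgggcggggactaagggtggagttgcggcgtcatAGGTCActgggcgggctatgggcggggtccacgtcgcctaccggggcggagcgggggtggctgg
Windows of 300 bases, which add the 50 bases after the start, were found for 10 of 10 genes, 15 windows in all, and were searched on both strands for 4 strings. The E-box lay in windows of 3 genes, PER1, NR1D2 and TEF, and in 7.26% of all 35116 promoters in the table. The D-box TTATGTAA lay in windows of 2 genes, PER3 and NR1D2, against 0.886% of all promoters. The core letters AGGTCA of the ROR element lay in windows of 2 genes, PER1 and CRY2, against 13.8% of all promoters. The bases beside these letters were not searched, so that a full element is not shown. The core of the glucocorticoid receptor's paired site, ACANNNTGT, lay in windows of 0 of the 10 genes, against 5.37% of all promoters. A gene was counted if any of its windows held the string, while the percentages are per single promoter window, so that the counts and percentages are not on the same scale. These strings do not overlap each other in the windows, and a match describes only the letters. In PER1 the E-box starts 173 bases before the start site and the ROR string 144 bases before it.

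Total counts ran from 8441211 to 13069598 per sample, and 58.7% to 78.7% of them fell on mitochondrial genes. The 10 clock genes held 893 to 2564 counts per sample together, so that their number of counts limits the precision. Levels are in CPM, a gene's counts over the library total with TMM scaling in edgeR, and tests are edgeR's quasi-likelihood test with Benjamini-Hochberg adjustment over the 22919 genes that passed the filter on low counts, called where the adjusted p was below 0.05. All 10 clock genes passed that filter. The Dex label was checked on TSC22D3, a glucocorticoid target, whose log2 fold change against untreated was 1.87 at 15 min and 2.89 at 3 h, and on FKBP5, another target, at 1.04 (not called) and 2.9. The inhibitors act on enzyme activity, and at 7 days the gene PRMT5 stood at -0.02 with GSK591 and -0.08 with MS023 (not called), and PRMT1, which encodes a type I enzyme, at -0.50 and -0.33 (both called). The keratins KRT7, KRT8 and KRT18 of epithelial cells ranged from 56.5 to 459 CPM, and the epithelial adhesion genes EPCAM and CDH1 from 0.957 to 6.65 CPM. Of 3 alveolar markers, NKX2-1, which defines the lineage, stood at 0 to 0.689 CPM, SFTPC at 0.556 to 4.41 CPM and SFTPB at 5.19 to 10.1 CPM. Of 6 markers of other cells, PTPRC, CD3E, PECAM1 and VWF stood at 0 to 1.26 CPM and PDGFRB at 0.0832 to 1.86 CPM, while the fibroblast collagen gene COL1A1 stood at 2.41 to 8.24 CPM, in the range of EPCAM and CDH1. The libraries of the 3 groups given MS023 for 7 days held 58.7% to 64.2% mitochondrial counts and the untreated ones 73.4% and 76.0%. The part of this in the results for MS023 was not tested. A refit without mitochondrial and ribosomal RNA genes ended 0 of the calls reported here, but it kept TMM scaling, so that this 0 says little about the mitochondrial share. When only total counts set the scale, 21 of 81 called results lost their call and 3 turned sign.

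In untreated cells, the clock genes differed in level per kilobase of exon (CPM per kb, mean ± SD, n = 2). Whether reads in introns were counted is not given, and the exonic part of a gene varies. Exons hold 6544 of 7409 bases in DBP and 11762 of 119236 in CLOCK. The order of the genes may therefore depend on the length used. PER3 was lowest at 0.444 ± 0.00594, and TEF at 0.835 ± 0.180, CRY2 at 1.03 ± 0.0849 and PER2 at 1.22 ± 0.306 followed. CLOCK at 1.62 ± 0.0779, NR1D2 at 1.63 ± 0.169, PER1 at 1.65 ± 0.0510 and CRY1 at 1.81 ± 0.287 stood close together. NR1D1 at 3.85 ± 0.0547 and DBP at 6.61 ± 0.235 were highest. Taken as mean ± 1 SD, neighbours from TEF to PER2 overlapped and so did neighbours from CLOCK to CRY1, while PER3, NR1D1 and DBP stood apart from the genes next to them. Over the 30 samples the highest level of PER1 was 10.6 times its lowest, the widest range of the 10 genes, and that of CLOCK was 1.64 times its lowest, the narrowest.

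Over 28 planned comparisons, PER1 was called in 12, PER2 in 11, DBP in 8, CRY2 in 7, CRY1 in 6, NR1D2 in 5 and PER3 in 2. CLOCK, NR1D1 and TEF were called in 0 of them. Against untreated cells, 2 of 10 clock genes were called after Dex for 15 min, where 1.26% of all genes tested were called, and 4 of 10 after Dex for 3 h, against 10.5%. With Dex and GSK591 given together for 3 h it was 4 of 10 against 11.9%, and with Dex and MS023 together 3 of 10 against 12%. GSK591 alone gave 2 of 10 at 2 days (5.64% of all genes), 5 at 4 days (17.2%) and 2 at 7 days (13.2%). MS023 alone gave 3 at 2 days (10.4%), 3 at 4 days (14.2%) and 1 at 7 days (13.6%). The share of clock genes called by edgeR lay above the background in the 4 comparisons of Dex with or without an inhibitor. It was above in 5 of the 6 comparisons of an inhibitor alone, and below at 7 days of MS023, with 1 gene of the 10. The genes were chosen with earlier results of these data known, so that these shares describe that choice and are no test of the set. DESeq2 called 0 of the 10 at 2 days of GSK591, 1 at 7 days of GSK591 and 1 at 4 days of MS023. The median log2 fold change of the 10 clock genes was -0.07 at 15 min and 0.17 at 3 h of Dex, beside -0.01 over all genes at both times. It was -0.09 at 7 days of GSK591 and of MS023, beside -0.0049 and 0.0061. The map of log2 fold changes shows these calls for each gene.

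**Figure D1:**
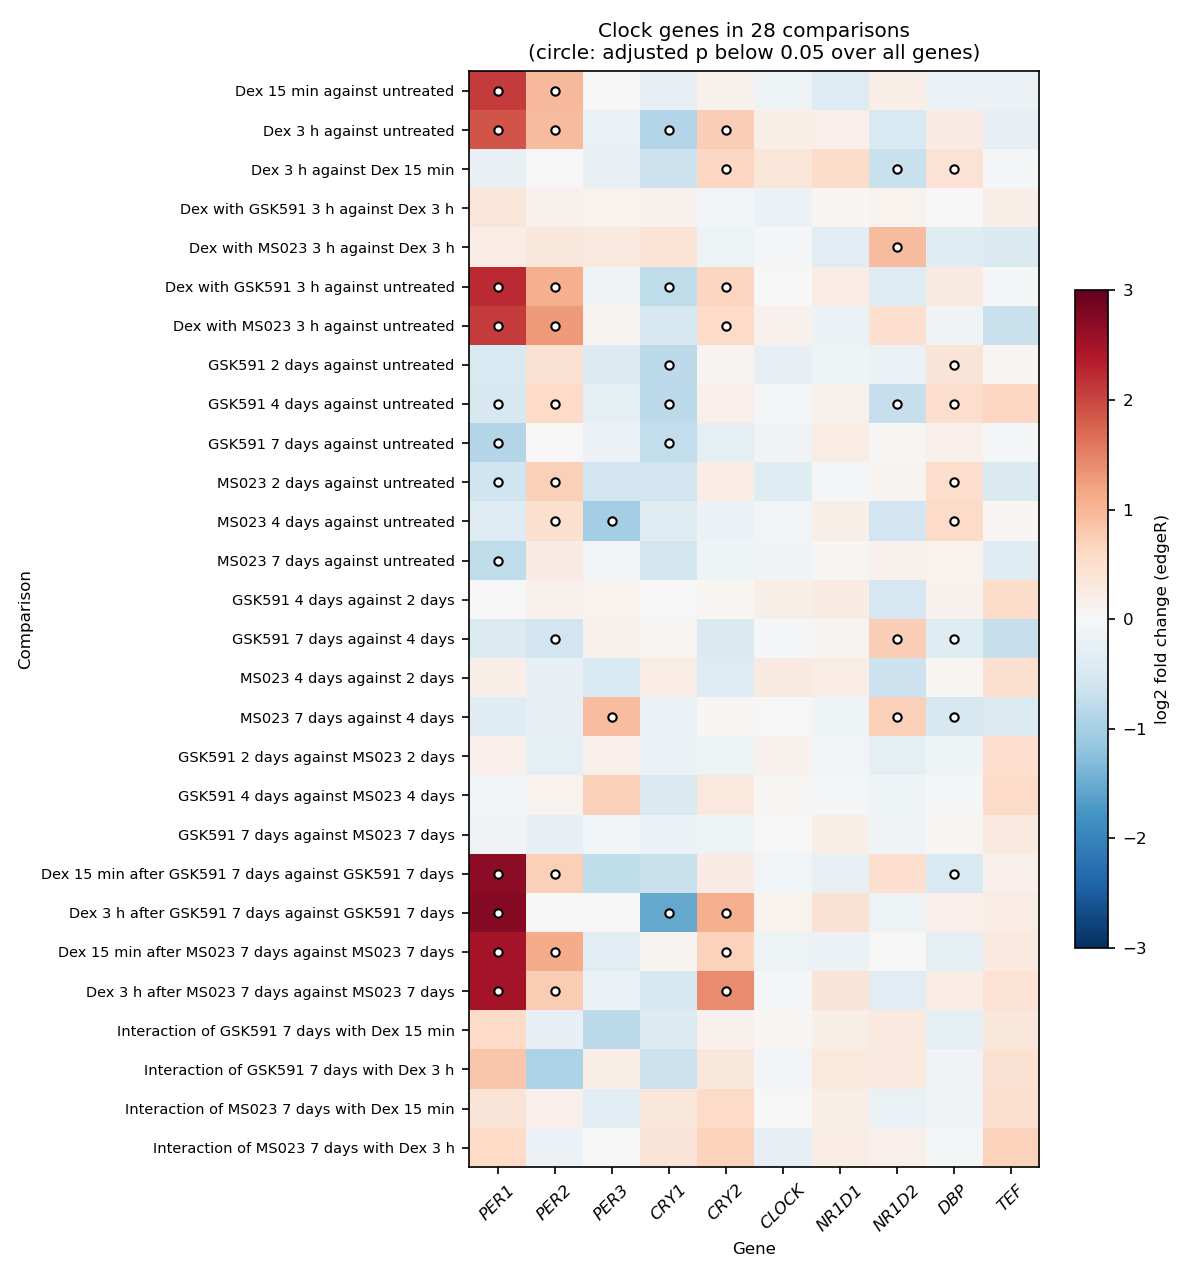
Log2 fold changes of the 10 clock genes (columns) in the 28 planned comparisons (rows) from edgeR, red higher and blue lower in the group named first, with a circle where the adjusted p over all genes tested was below 0.05. PER1 is circled in 12 comparisons, with its 4 deepest reds, 2.49 to 2.72, in Dex after 7 days of inhibitor, and CLOCK, NR1D1 and TEF carry no circle.

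Among the period genes, PER1 and PER2 rose within 15 min of Dex and PER3 did not pass the test. PER1 (ENSG00000179094.15, chromosome 17, 8140472 to 8156506, minus strand), which encodes a repressor of the CLOCK pair, stood at 11.8 and 11.3 CPM in the 2 untreated samples, 47.9 and 51.2 CPM after Dex for 15 min, and 44.6 and 40.3 CPM after 3 h. Every Dex sample lay above both untreated samples. The rise was 4.29-fold at 15 min (log2 2.10, SE 0.144, adjusted p = 7.71e-16, edgeR) and 3.68-fold at 3 h (log2 1.88, SE 0.146, adjusted p = 2.18e-14, edgeR). Between 15 min and 3 h PER1 differed by -0.22 on the log2 scale (95% interval -0.48 to 0.03, adjusted p = 0.293, edgeR), which did not pass. The exons of PER1 overlap MIR6883 and AC129492.3 on the same strand over 1.54% of their length.

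PER2 (ENSG00000132326.11, chromosome 2, 238244038 to 238290102, minus strand), the second PER repressor, stood at 6.90 and 9.87 CPM in untreated cells, 16.7 and 16.4 CPM after Dex for 15 min, and 18.3 and 14.2 CPM after 3 h. Untreated and Dex samples did not overlap. Its log2 fold changes were 0.97 (SE 0.165, adjusted p = 0.000121, edgeR) and 0.95 (SE 0.168, adjusted p = 4.09e-05, edgeR). The call at 15 min was lost without untreated replicate 1, the lower of the 2 untreated samples (log2 0.74, adjusted p = 0.0755, edgeR), and the call at 3 h was kept in all alternatives and leave-outs. PER3 (ENSG00000049246.14, chromosome 1, 7784320 to 7845177, plus strand), the third member of the family, stood at 3.56 and 3.63 CPM untreated and between 2.93 and 3.65 CPM in the 4 Dex samples. Its log2 differences of 0.01 (95% interval -0.56 to 0.59) and -0.20 (95% interval -0.80 to 0.40) did not pass, and 16.7% of its exonic length overlaps genes on the opposite strand.

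**Figure D2:**
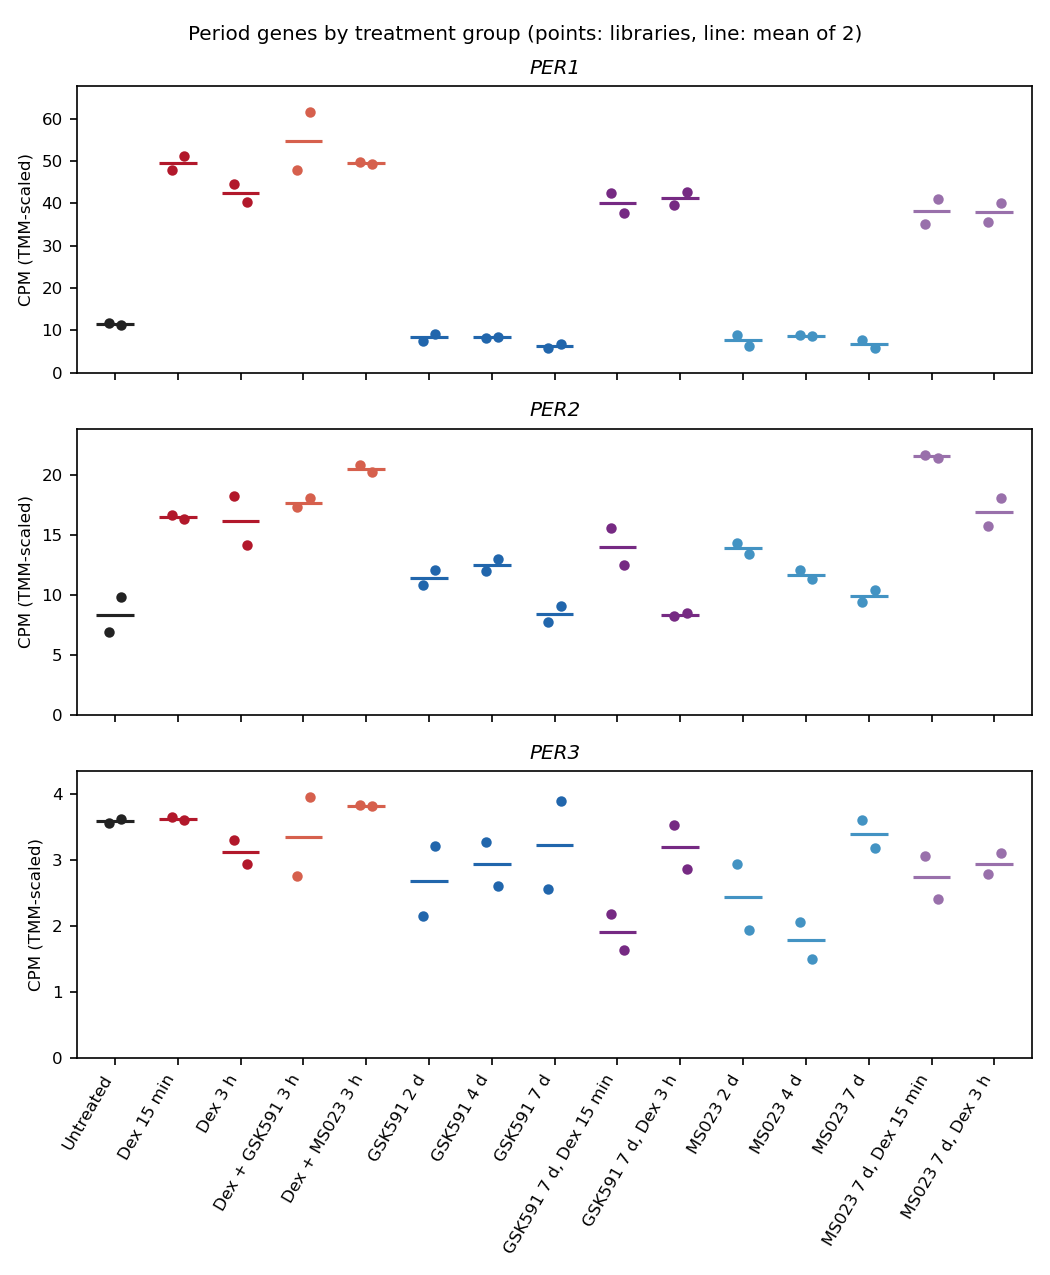
Levels of PER1, PER2 and PER3 in CPM (TMM-scaled, vertical axes from 0) in the 15 groups, with a point for each sample and a line at the mean of 2. All PER1 points with Dex lie at 35.1 CPM or above and all points without it at 11.8 CPM or below, and PER2 after 7 days of GSK591 and 3 h of Dex lies at 8.27 and 8.48 CPM.

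Under the inhibitors alone, PER1 stood below untreated cells, while PER2 was not called lower from the count table. PER1 was at 7.53 and 9.08 CPM after 2 days of GSK591, 8.16 and 8.42 CPM after 4 days, and 5.81 and 6.70 CPM after 7 days. With MS023 it was at 8.90 and 6.28 CPM after 2 days, 8.88 and 8.62 CPM after 4 days, and 7.72 and 5.79 CPM after 7 days. All 12 inhibitor samples lay below both untreated samples. PER1 fell by 0.89 on the log2 scale at 7 days of GSK591 (SE 0.186, adjusted p = 0.000587, edgeR), a call kept in all alternatives and leave-outs. It fell by 0.77 at 7 days of MS023 (SE 0.167, adjusted p = 0.000898, edgeR), but stood 0.25 higher when only total counts set the scale, where the median of all genes moved to 1.02, and the call was also lost without MS023 7 days replicate 2 (-0.58, adjusted p = 0.0646, edgeR). Earlier calls for PER1 were -0.48 at 4 days of GSK591, lost in each of 4 leave-outs, in DESeq2, with no filter and with total counts alone (-0.056, adjusted p = 0.899, edgeR), and -0.61 at 2 days of MS023, lost in 3 of 4 leave-outs and 0.073 with total counts alone. At 2 days of GSK591 and 4 days of MS023 the log2 values of -0.47 and -0.40 did not pass.

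PER2 rose at 4 days of GSK591 and at 2 and 4 days of MS023. It stood at 10.9 and 12.1 CPM after 2 days of GSK591 and 12.0 and 13.0 CPM after 4 days, and at 14.4 and 13.5 CPM after 2 days of MS023 and 12.1 and 11.3 CPM after 4 days. These 8 samples lay above both untreated samples, and after 7 days PER2 was at 7.79 and 9.11 CPM with GSK591 and 9.42 and 10.4 CPM with MS023, which overlapped the untreated range. The authors' deposited tables, from another counting, call PER2 lower at 7 days of GSK591 (-0.46, adjusted p = 0.00341, DESeq2). At 7 days of MS023 they give 0.06, without a call. The calls were 0.57 at 4 days of GSK591 and 0.72 and 0.47 at 2 and 4 days of MS023 on the log2 scale, and 0.45 at 2 days of GSK591 did not pass. All 3 calls were lost without untreated replicate 1, where the values were 0.34, 0.49 and 0.25 (adjusted p = 0.335, 0.165 and 0.562, edgeR). The GSK591 call was also lost without replicate 2 of its own group (0.51). The call at 4 days of MS023 was also lost in DESeq2, with no filter and without either replicate of its group (0.43 and 0.52). PER3 fell to 2.06 and 1.5 CPM at 4 days of MS023 (log2 -1.01, SE 0.303, adjusted p = 0.0175, edgeR), a call not made by DESeq2 or with total counts alone and lost in 3 of 4 leave-outs.

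After 7 days of either inhibitor, Dex still raised PER1 at both times. Of 10 clock genes, 3 were called in each of the 4 comparisons of Dex after an inhibitor with that inhibitor alone, against 2.09% of all genes for 15 min after GSK591, 9.85% for 3 h after GSK591, 2.07% for 15 min after MS023 and 11.1% for 3 h after MS023. PER1 stood at 42.5 and 37.8 CPM at 15 min and 39.6 and 42.8 CPM at 3 h after GSK591, and at 35.1 and 41.0 CPM at 15 min and 35.7 and 40.2 CPM at 3 h after MS023. No Dex sample overlapped the samples with inhibitor alone. The log2 rises were 2.68 (SE 0.165) and 2.72 (SE 0.164) over GSK591 alone and 2.49 (SE 0.147) at both times over MS023 alone, and all 4 calls were kept in all alternatives and leave-outs. Set against Dex alone, in comparisons added after the values had been seen, PER1 at 3 h differed by -0.05 after GSK591 (95% interval -0.31 to 0.21) and by -0.17 after MS023 (95% interval -0.42 to 0.09), neither of which passed. At 15 min the difference was -0.31 after GSK591 (adjusted p = 0.0973, edgeR) and -0.38 after MS023 (adjusted p = 0.0311, edgeR), the latter 0.17 with total counts alone and lost in DESeq2 and in 3 of 4 leave-outs.

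Under Dex, PER2 stood lower after 7 days of GSK591 than after 7 days of MS023, at 15 min and at 3 h. It stood at 15.6 and 12.5 CPM at 15 min and at 8.27 and 8.48 CPM at 3 h of Dex after GSK591, against 21.7 and 21.5 CPM at 15 min and 15.7 and 18.2 CPM at 3 h after MS023. The 3 h samples after GSK591 lay within the range of the untreated and GSK591 7-day samples, while those after MS023 lay above all of them. Over the inhibitor alone, PER2 rose at 15 min after GSK591 (log2 0.72, SE 0.176, adjusted p = 0.0144, edgeR) and at 15 min and 3 h after MS023 (log2 1.12, SE 0.148, and 0.77, SE 0.149). At 3 h after GSK591 its log2 difference was -0.01 (95% interval -0.39 to 0.37, adjusted p = 0.987, edgeR). In the authors' deposited tables, each against untreated, PER2 stands at 0.03 in that group and at -0.46 with GSK591 alone. The call at 15 min after GSK591 was lost with total counts alone, when the compared groups were fitted alone, and in 3 of 4 leave-outs.

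Direct comparisons of the pretreated Dex groups were added after these values had been seen, and are a description of that choice. At 3 h of Dex, 3 of 10 clock genes were called between GSK591 pretreatment and none, against 13.6% of all genes, and 3 of 10 between GSK591 and MS023 pretreatment, against 11.1%. PER2 was lower after GSK591 than with Dex alone by a log2 value of -0.96 (SE 0.170, adjusted p = 4.60e-05, edgeR) and lower than after MS023 by -1.02 (SE 0.163, adjusted p = 1.23e-05, edgeR). Both held in all alternatives and leave-outs. At 15 min, PER2 was also lower after GSK591 than after MS023 (log2 -0.63, SE 0.150, adjusted p = 0.00220, edgeR), a call lost without replicate 2 of the GSK591 group. There, 3 of 10 clock genes were called against 15.6% of all genes.

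The test of whether an inhibitor changed the Dex response itself, an interaction of both treatments, called 0 of 10 clock genes at either time for either inhibitor. Of all genes tested, 0.00436% were called for each inhibitor at 15 min and 0.223% for each at 3 h. At an unadjusted p below 0.05, edgeR gave 1 clock gene at 15 min and 2 at 3 h for each inhibitor. DESeq2 called 0 of the 10 in all 4. At 3 h, however, DESeq2 left the adjusted p undefined for 15 (GSK591) and 16 (MS023) of the 23 other clock genes described below. The PER1 terms of both inhibitors and the PER2 term of GSK591 had a defined adjusted p in DESeq2 and were not called. Any other term of the 10 left undefined could not be called, so that its 0 at 3 h does not speak for each gene. For GSK591 at 3 h, the PER2 response differed by -0.96 (SE 0.252, 95% interval -1.46 to -0.45, adjusted p = 0.101, edgeR) and the PER1 response by 0.84 (SE 0.227, 95% interval 0.38 to 1.30, adjusted p = 0.112, edgeR). The PER2 term passed without untreated replicate 2 (-1.25, adjusted p = 0.0428, edgeR), and its adjusted p ran from 0.0803 to 1.00 in the other 14 settings and leave-outs, in which the log2 value ran from -1.13 to -0.73. The PER1 term was called in 0 of 15, with adjusted p from 0.0723 to 1.00. For MS023 at 3 h, the terms were 0.60 for PER1 (SE 0.210, adjusted p = 0.278, edgeR) and 0.68 for CRY2 (SE 0.256, adjusted p = 0.339, edgeR). A term that misses the threshold does not show that the responses were alike.

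Against untreated cells, comparisons that were also added later, 15 min of Dex after GSK591 called 4 of 10 clock genes against 15.5% of all genes, and 3 h called 5 against 26.8%. After MS023 it was 3 against 17.2% at 15 min and 5 against 21.9% at 3 h. PER1 was higher in all 4, with log2 values from 1.72 to 1.83. PER2 was higher in 3, at 0.72 for 15 min after GSK591 and 1.36 and 1.01 after MS023, and stood at -0.01 for 3 h after GSK591. The call of 0.72 was lost with total counts alone and without untreated replicate 1 (0.49, adjusted p = 0.126, edgeR) or replicate 1 of its own group (0.56, adjusted p = 0.0621, edgeR). PER3 stood at 2.19 and 1.64 CPM with 15 min of Dex after GSK591, below both untreated samples, and its call there (-0.93) was lost in DESeq2, in each of 4 leave-outs and under 4 other settings.

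The cryptochromes moved in opposite directions at 3 h of Dex. CRY1 (ENSG00000008405.11, chromosome 12, 106991364 to 107093829, minus strand), a strong repressor of the CLOCK pair, stood at 8.12 and 10.2 CPM in untreated cells, 8.49 and 7.00 CPM after Dex for 15 min, and 5.53 and 4.40 CPM after 3 h. CRY2 (ENSG00000121671.11, chromosome 11, 45847118 to 45883248, plus strand), its partner, stood at 6.01 and 6.75 CPM untreated, 6.42 and 7.50 CPM after 15 min, and 10.6 CPM in both samples at 3 h. For both genes the 3 h samples did not overlap the untreated ones, and the 15 min samples did. CRY1 fell by 0.88 on the log2 scale at 3 h (SE 0.243, adjusted p = 0.0114, edgeR), and CRY2 rose by 0.73 (SE 0.190, adjusted p = 0.00638, edgeR). The CRY1 call was lost in DESeq2 on the count table (adjusted p = 0.0637, DESeq2), with total counts alone, without untreated replicate 2 and without Dex 3 h replicate 2. The CRY2 call was lost without untreated replicate 1 (log2 0.65). The authors' deposited table, from another counting, calls both genes at 3 h, CRY1 at -0.73 and CRY2 at 0.44.

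CRY1 was lowest where 7 days of GSK591 were followed by 3 h of Dex. It stood at 5.78 and 4.94 CPM at 2 days, 6.15 and 4.41 CPM at 4 days and 5.70 and 5.36 CPM at 7 days of GSK591, then at 2.32 and 4.43 CPM with 15 min of Dex and 2.32 and 1.49 CPM with 3 h of Dex. All 10 of these samples lay below both untreated samples. GSK591 alone lowered CRY1 by a log2 value of -0.78 at 2 days, -0.79 at 4 days and -0.73 at 7 days. DESeq2 on the count table and total counts alone did not make these calls, which were lost in 4, 2 and 3 of 4 leave-outs. The authors' deposited tables, from another counting, call CRY1 lower at each of these times (-0.52, -1.22 and -1.09). Dex for 3 h after GSK591 lowered it by a further log2 value of -1.53 (SE 0.314, adjusted p = 0.000438, edgeR), kept in all alternatives and leave-outs. In the comparison with untreated cells added after the values had been seen, in which 5 of 10 clock genes were called against 26.8% of all genes, the log2 value was -2.26 (SE 0.287, adjusted p = 1.71e-08, edgeR). These CRY1 levels rest on few reads, 17.0 counts on average at 3 h of Dex after GSK591 against 87.0 in untreated cells.

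MS023 alone gave no call for CRY1 from the count table, and CRY1 was not called between the 2 inhibitors at any of the 3 times. It stood at 6.06 and 6.28 CPM at 2 days, 7.67 and 6.69 CPM at 4 days and 5.38 and 7.09 CPM at 7 days, all below the untreated samples, with log2 values of -0.57, -0.35 and -0.56 that did not pass. With Dex for 3 h after MS023 it stood at 3.95 and 4.95 CPM, -0.49 from MS023 alone (adjusted p = 0.194, edgeR) and -1.04 from untreated, the latter called in that added comparison but -0.04 with total counts alone. Under Dex for 3 h, CRY1 was lower after GSK591 than after MS023 by a log2 value of -1.22 (SE 0.305, adjusted p = 0.00509, edgeR) and lower than with Dex alone by -1.38 (SE 0.316, adjusted p = 0.00159, edgeR), both among the added comparisons. The first was lost without replicate 2 of either group and the second without replicate 2 of the GSK591 group (-1.11, adjusted p = 0.0584, edgeR).

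**Figure D3:**
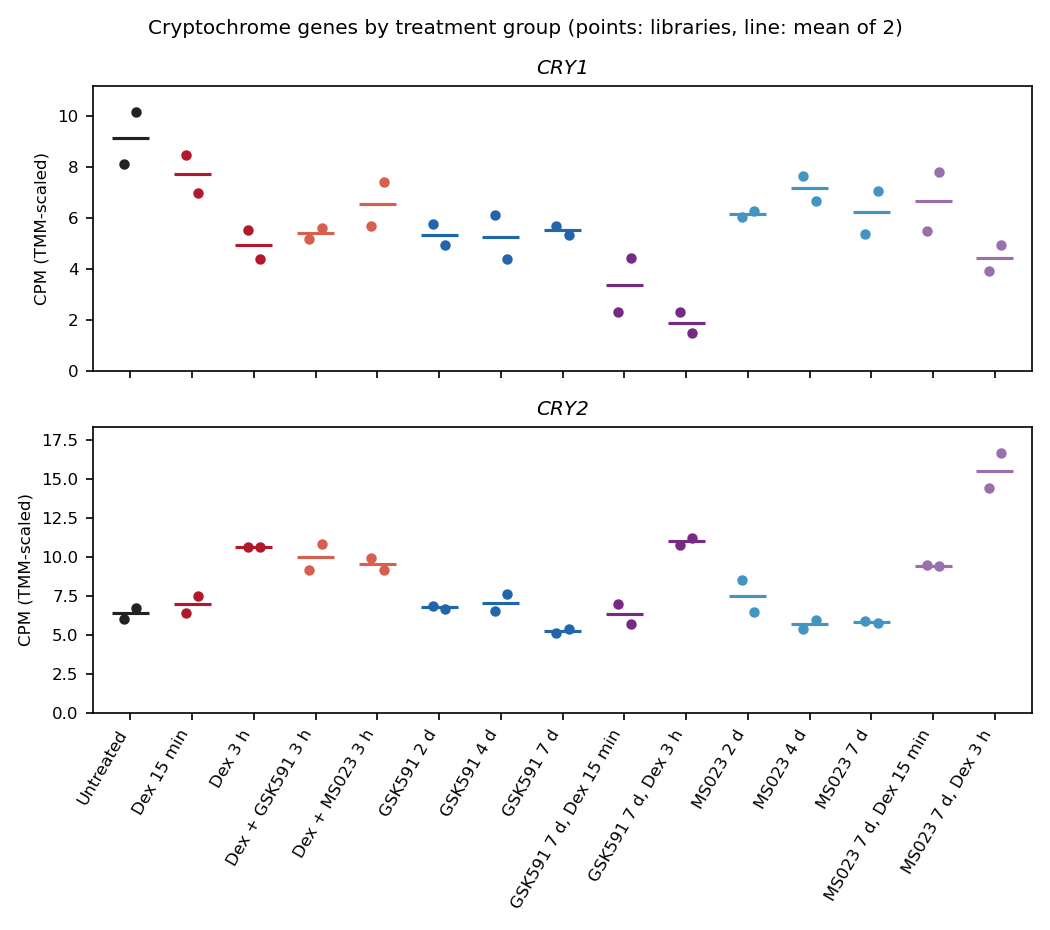
Levels of CRY1 and CRY2 in CPM (TMM-scaled, vertical axes from 0) in the 15 groups, with a point for each sample and a line at the mean of 2. CRY1 is lowest at 2.32 and 1.49 CPM and CRY2 highest at 14.4 and 16.7 CPM, in the groups given 3 h of Dex after 7 days of GSK591 and of MS023 respectively.

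CRY2 reached its highest level where 7 days of MS023 were followed by 3 h of Dex. It stood at 5.88 and 5.79 CPM with MS023 alone for 7 days, 9.49 and 9.41 CPM with 15 min of Dex and 14.4 and 16.7 CPM with 3 h of Dex, 3 ranges without overlap. The rise over MS023 alone was 1.62-fold at 15 min (log2 0.69, SE 0.178, adjusted p = 0.0209, edgeR) and 2.66-fold at 3 h (log2 1.41, SE 0.169, adjusted p = 7.37e-09, edgeR). The call at 3 h was kept in all alternatives and leave-outs, and that at 15 min was lost in each of 4 leave-outs, in DESeq2, with no filter and with total counts alone. After 7 days of GSK591, CRY2 went from 5.11 and 5.36 CPM to 6.97 and 5.68 CPM at 15 min and 10.8 and 11.2 CPM at 3 h of Dex, a log2 rise of 1.07 at 3 h (SE 0.201, adjusted p = 0.000103, edgeR) that was kept throughout. Neither inhibitor alone gave a call for CRY2, with log2 values from -0.29 to 0.22 against untreated. Under Dex for 3 h, CRY2 was higher after MS023 than with Dex alone by 0.55 on the log2 scale (SE 0.167, adjusted p = 0.0230, edgeR), an added comparison in which 1 of 10 clock genes was called against 11.5% of all genes, and which DESeq2 and 3 of 4 leave-outs did not call.

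With an inhibitor and Dex together for 3 h, NR1D2 with MS023 was the 1 call against Dex alone. With GSK591 and Dex for 3 h, PER1 stood at 47.9 and 61.6 CPM, PER2 at 17.4 and 18.1 CPM, CRY1 at 5.21 and 5.62 CPM and CRY2 at 9.19 and 10.8 CPM. With MS023 and Dex for 3 h, PER1 stood at 49.8 and 49.3 CPM, PER2 at 20.9 and 20.3 CPM, CRY1 at 5.69 and 7.44 CPM and CRY2 at 9.95 and 9.20 CPM. Both PER1 samples of each group lay above those with Dex alone. PER2, CRY1 and CRY2 overlapped Dex alone with GSK591, while with MS023 PER2 and CRY1 lay above and CRY2 below it. Against Dex alone for 3 h, GSK591 gave 0 calls among 10 clock genes, with 0% of all genes called, 1 clock gene at an unadjusted p below 0.05 (PER1, log2 0.36, adjusted p = 0.821, edgeR) and 0 by DESeq2. MS023 gave 1 call, NR1D2, against 0.196% of all genes, and 3 clock genes at an unadjusted p below 0.05 (NR1D2, DBP at -0.36 and PER2 at 0.34). Against untreated cells PER1, PER2 and CRY2 were called with either inhibitor, and CRY1 with GSK591 (log2 -0.76, SE 0.236, adjusted p = 0.0255, edgeR). DESeq2 on the count table made neither the CRY1 call nor the CRY2 calls. The CRY1 value was -0.49 and not called with total counts alone, and the CRY1 and CRY2 calls were lost in 3 of 4 leave-outs or more. The authors' deposited tables, from another counting, call CRY1 (-0.63) and CRY2 (0.62) with GSK591. With MS023 they call CRY2 (0.50) and also CRY1 (-0.54).

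CLOCK, the activator of the loop (ENSG00000134852.14, chromosome 4, 55427903 to 55547138, minus strand), ranged from 14.5 to 23.7 CPM over the 30 samples with a median of 17.7 CPM. Its untreated samples stood at 18.4 and 19.6 CPM and those at 3 h of Dex at 23.7 and 19.5 CPM, which overlapped. It was called in 0 of 28 planned and 0 of 10 added comparisons, and its 95% intervals against untreated cells reached from -0.67 (2 days of MS023) to 0.48 (3 h of Dex) on the log2 scale. With total counts alone, CLOCK was called higher than untreated at 4 and 7 days of MS023 (log2 0.65 and 0.91) and with Dex for 15 min and 3 h after MS023 (0.62 and 0.85), where the median of all genes moved to 0.74, 1.02, 0.87 and 1.00. In the other direction it was called at 2 days of MS023 with the compared groups alone (-0.38, adjusted p = 0.0365, edgeR).

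The REV-ERB genes, which encode repressors acting through ROR elements, differed from each other. NR1D1 (ENSG00000126368.5, chromosome 17, 40092787 to 40100725, minus strand), whose exons overlap THRA on the opposite strand over 9.49% of their length, stood at 10.6 and 10.8 CPM untreated, 8.00 and 8.30 CPM after Dex for 15 min and 14.1 and 9.52 CPM after 3 h. These differences did not pass (log2 -0.39 and 0.16, adjusted p = 0.646 and 0.678, edgeR). With 3 h of Dex after GSK591 it stood at 18.1 and 16.5 CPM, above every other sample of the series for this gene. That was a rise of 0.70 over untreated cells on the log2 scale (SE 0.178, adjusted p = 0.00229, edgeR), an added comparison kept in all alternatives and leave-outs, while over GSK591 alone the value of 0.47 did not pass (adjusted p = 0.0891, edgeR).

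NR1D2 (ENSG00000174738.12, chromosome 3, 23945260 to 23980618, plus strand) stood at 8.79 and 10.2 CPM untreated, 11.1 and 10.9 CPM after Dex for 15 min and 5.85 and 8.06 CPM after 3 h. The samples at 15 min lay above and those at 3 h below the untreated ones. Between the Dex times, where 3 of 10 clock genes were called against 10.8% of all genes, NR1D2 fell by 0.67 on the log2 scale (SE 0.220, adjusted p = 0.0405, edgeR), DBP rose by 0.43 and CRY2 rose by 0.61. These 3 calls were lost with total counts alone and in 3 to 4 of 4 leave-outs each. With MS023 and Dex together for 3 h, NR1D2 stood at 10.4 and 16.3 CPM, a log2 rise of 0.96 over Dex alone (SE 0.216, adjusted p = 0.0368, edgeR), which was 0.59 without replicate 2 of that group (adjusted p = 0.685, edgeR) and was not called when the groups were fitted alone. That call was lost in 3 of 4 leave-outs. At 4 days of GSK591, NR1D2 stood at 6.72 and 5.01 CPM, below both untreated samples, a call (log2 -0.69, SE 0.226, adjusted p = 0.0265, edgeR) that was lost in DESeq2, in 3 of 4 leave-outs and with total counts alone (-0.27, adjusted p = 0.565, edgeR).

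DBP (ENSG00000105516.10, chromosome 19, 48630030 to 48637438, minus strand), a D-box activator that the CLOCK pair drives through E-boxes, rose at the earlier times of both inhibitors. It stood at 42.2 and 44.3 CPM untreated, 52.0 and 61.6 CPM at 2 days and 65.2 and 59.3 CPM at 4 days of GSK591, and 60.5 and 63.4 CPM at 2 days and 60.7 and 68.9 CPM at 4 days of MS023. All 8 samples lay above both untreated samples. The log2 rises were 0.40 (adjusted p = 0.0331, edgeR) and 0.53 (adjusted p = 0.000711, edgeR) for GSK591 and 0.52 (adjusted p = 0.00158, edgeR) and 0.58 (adjusted p = 0.000199, edgeR) for MS023. The call at 2 days of GSK591 was lost in DESeq2, with no filter and in 3 of 4 leave-outs, and the other 3 were kept throughout.

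By 7 days DBP stood at 48.2 and 48.5 CPM with GSK591 and 46.4 and 46.5 CPM with MS023, still above both untreated samples but with log2 values of 0.16 and 0.10 that did not pass. From 4 to 7 days, 3 of 10 clock genes were called for GSK591, against 8.29% of all genes, and 3 of 10 for MS023, against 9.04%. DBP fell by 0.36 and 0.48 and NR1D2 rose by 0.73 and 0.71 on the log2 scale, in that order, beside PER2 for GSK591 (-0.57) and PER3 for MS023 (0.93). The 3 calls for GSK591 were lost in DESeq2 and in each of 4 leave-outs, and that of NR1D2 was 0.29 with total counts alone. For MS023, the calls of NR1D2 and PER3 were lost in DESeq2 and in 3 and 4 of 4 leave-outs, and that of DBP with total counts alone and without replicate 2 at 4 days. From 2 to 4 days 0 clock genes were called for either inhibitor by edgeR or DESeq2, against 3.39% and 4.91% of all genes. In edgeR, 2 clock genes each had an unadjusted p below 0.05. DESeq2 left the adjusted p undefined there for 7 (GSK591) and 11 (MS023) of the 23 other clock genes, so that its 0 may not cover all 10. With 15 min of Dex after GSK591, DBP stood at 35.9 and 34.3 CPM, below both samples of GSK591 alone, a call (log2 -0.46, adjusted p = 0.0232, edgeR) lost in each of 4 leave-outs, with total counts alone and with the compared groups alone. DBP shares 10.1% of its exonic length with SPHK2 on the opposite strand.

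TEF (ENSG00000167074.14, chromosome 22, 41367333 to 41399326, plus strand), the other D-box activator, ranged from 2.05 to 6.91 CPM and was called in 0 comparisons. Its untreated samples stood at 3.34 and 4.53 CPM and its highest pair, at 4 days of GSK591, at 6.91 and 5.32 CPM. That pair lay above the untreated samples with a log2 value of 0.63 (95% interval 0.10 to 1.16, adjusted p = 0.0920, edgeR), which passed with the compared groups alone (log2 0.62, adjusted p = 0.0446, edgeR) and with total counts alone (log2 1.04, adjusted p = 0.0127, edgeR). The authors' deposited table calls it too (0.74, adjusted p = 0.0354, DESeq2).

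**Figure D4:**
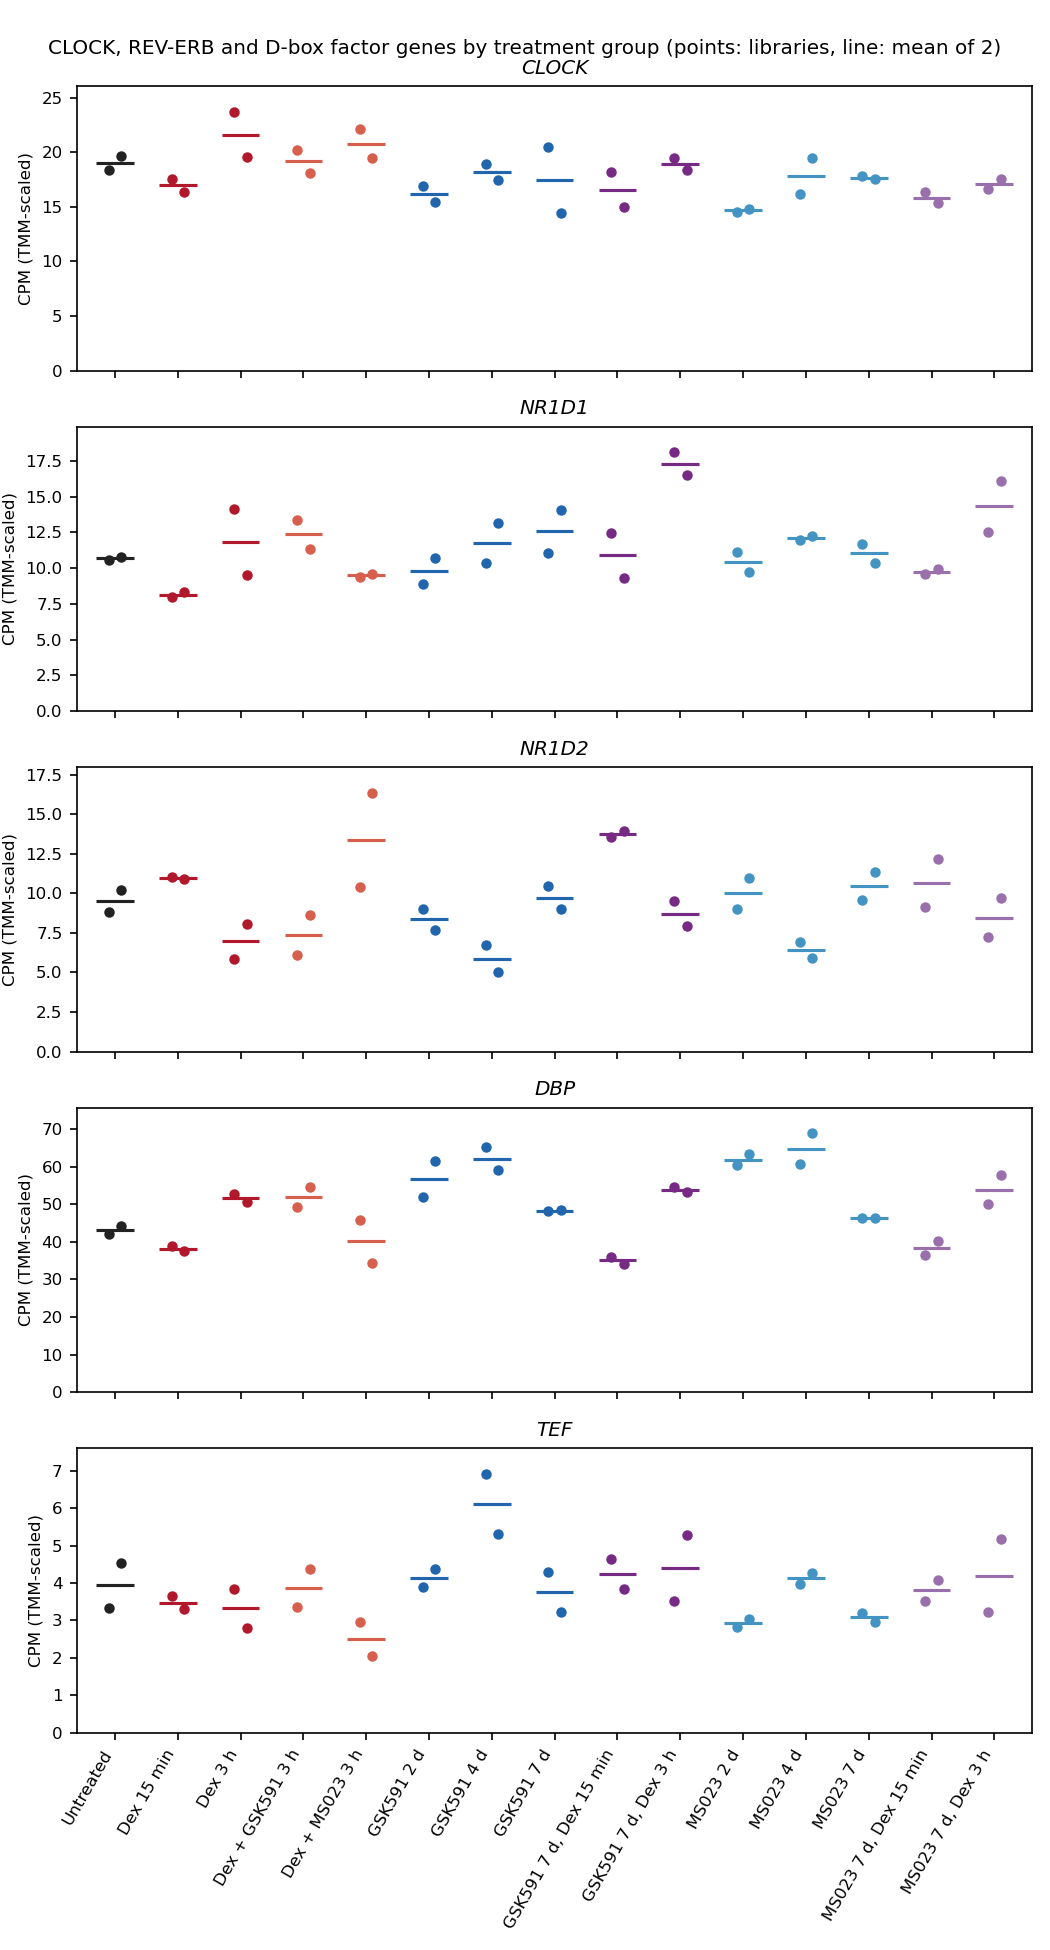
Levels of CLOCK, NR1D1, NR1D2, DBP and TEF in CPM (TMM-scaled, vertical axes from 0) in the 15 groups, with a point for each sample and a line at the mean of 2. By group mean DBP is highest at 2 and 4 days of either inhibitor, with samples from 52.0 to 68.9 CPM that overlap those with 3 h of Dex, and NR1D1 is highest at 18.1 and 16.5 CPM with 3 h of Dex after GSK591.

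The 2 inhibitors without Dex gave no call against each other on these genes. GSK591 against MS023 gave 0 calls of 10 at 2, 4 and 7 days by edgeR and by DESeq2, against 2.69%, 6.03% and 9.38% of all genes, with 0, 2 and 0 clock genes at an unadjusted p below 0.05. At 7 days the log2 differences were -0.12 for PER1 (95% interval -0.50 to 0.27), -0.24 for PER2 (95% interval -0.59 to 0.11), -0.17 for CRY1 (95% interval -0.66 to 0.32) and -0.16 for CRY2 (95% interval -0.57 to 0.26). With total counts alone all 10 clock genes were called lower with GSK591 at 7 days, as was the median of all genes, which moved to -1.07.

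The 5 genes whose group means were most like those of PER1 were found among the 11109 genes whose mean reached 5 CPM, by Pearson's r of log2 CPM over the 15 groups, as a description. ANGPTL4, a lipase inhibitor, had an r of 0.988, POU5F1, a transcription factor, 0.977, MT2A, a metallothionein, 0.977, NFKBIA, the inhibitor of NF-kappa-B, 0.970, and AC026461.3, a long noncoding RNA, 0.956. At 15 min of Dex their log2 rises were 1.95 for ANGPTL4, 1.92 for POU5F1, 1.62 for MT2A, 1.30 for NFKBIA and 2.20 for AC026461.3. All 5 were also the closest over the 30 samples one by one, while by Spearman's rho 1 of them, ANGPTL4, was among the closest 5. The 15 points share libraries, and exons of POU5F1 overlap TCF19 on the opposite strand over 8.56% of their length. On chromosome 16, MT2A ends at 56609497 on the plus strand and AC026461.3 begins at 56609501 on the minus strand. Use of strand in the counting is not given, and whether these neighbours are separate signals was not tested. Among the clock genes themselves, PER1 had an r of 0.69 with CRY2 and 0.64 with PER2 over the same 15 means, CRY1 had -0.70 with NR1D1, and NR1D2 had -0.81 with DBP.

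Of 23 other clock genes listed, 22 passed the filter on low counts and RORB did not. At 15 min of Dex 1 of 22 was called, BHLHE40, an E-box repressor (log2 -1.03), with a median of 0.03 beside -0.01 over all genes. At 3 h of Dex 3 of 22 were called, CIART, a repressor of the CLOCK pair (1.76), BTRC, part of a ubiquitin ligase for PER proteins (-1.06), and BHLHE40 (-0.94), with a median of -0.05 beside -0.01. At 7 days of GSK591 5 of 22 were called, among them BHLHE41, an E-box repressor (1.93), TIMELESS (-1.26), CSNK1E, a PER kinase (0.53), and NPAS2, which can replace CLOCK (-0.52), with BHLHE40 as the fifth and a median of -0.09 beside -0.0049. At 7 days of MS023 0 of 22 were called by edgeR, with 7 at an unadjusted p below 0.05, 0 by DESeq2 and a median of -0.06 beside 0.0061. DESeq2 called 1 of these genes at 15 min and 2 at 3 h of Dex and 3 at 7 days of GSK591, of which 1, 2 and 2 were also called by edgeR. CIART at 3 h (adjusted p = 0.152, DESeq2) and CSNK1E, NPAS2 and BHLHE40 at 7 days were not among them, and SIRT1 at 7 days was called by DESeq2 only. The backgrounds of these 4 comparisons are those given above for the 10 genes.

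The authors' deposited table for each of 14 comparisons with untreated cells, made from another counting, gives values for 9 of the 10 clock genes, all but PER3, 126 in all. The authors' deposited tables call 63 of them at an adjusted p below 0.05 and the count table called 44, with 42 called in both, all 42 in the same direction. In the authors' deposited tables PER1 rises by 2.52 at 15 min and 2.41 at 3 h of Dex and falls by 1.43 at 7 days of GSK591 and 1.03 at 7 days of MS023 on the log2 scale. CRY1 after GSK591 and 3 h of Dex stands at -1.70 and PER2 there at 0.03 in the authors' deposited tables, beside -2.26 and -0.01 from the count table. With GSK591 alone for 7 days, the authors' deposited tables call PER2 lower (-0.46, adjusted p = 0.00341, DESeq2), beside -0.0012 from the count table. In those values PER2 after GSK591 stands higher with 3 h of Dex than without it, a difference that was not tested. For Dex alone at 3 h they give PER2 0.85, beside 0.95. Further calls of the authors' deposited tables that the count table did not give include NR1D1 at 3 h of Dex (-0.60, beside 0.16), CRY1 at 7 days of MS023 (-0.82, beside -0.56) and NR1D2 at 7 days of GSK591 and of MS023 (-0.50 and -0.67, beside 0.04 and 0.14). DBP at 4 days of MS023 stands at 1.36 in the authors' deposited tables, beside 0.58. The rise of NR1D1 with 3 h of Dex after GSK591 (0.70) has -0.07 beside it in the authors' deposited tables, without a call.

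**Figure D5:**
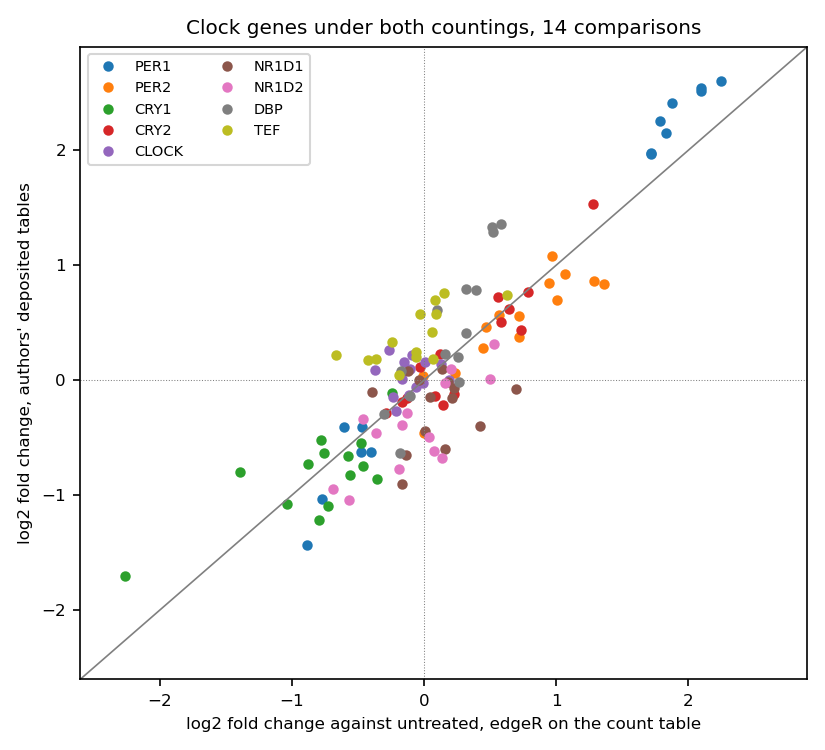
Log2 fold changes against untreated of 9 clock genes in 14 comparisons, from edgeR on the count table (horizontal) and in the authors' deposited tables (vertical), with the line of equal values. PER1 with Dex lies at the upper right, up to 2.25 and 2.60, and with an inhibitor alone at the lower left, down to -0.89 and -1.43, where CRY1 also lies, down to -2.26 and -1.70, and NR1D1 lies mostly below the line.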

How the data were processed

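The analysis started from deposited tables of PRO-seq in A549 cells. Groups and replicate numbers follow the sample labels. The authors deposited whole-number counts per gene for 30 samples, made with featureCounts 2.0.1 on hg38 per the submitters' processing notes; the aligner's settings, feature type and use of strand are not given in the sources used here. All 58780 gene identifiers match GENCODE 29, the source of coordinates, lengths and overlaps. The authors also deposited 14 comparison tables with a mean signal per gene (baseMean), log2 fold changes with standard errors, and p-values, per the file headers; they come from another counting and were used as values only.

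Counts were fitted in edgeR 4.0.16 (R 4.3.3) with TMM scaling, filterByExpr (minimum count 10, minimum total 15) and the robust quasi-likelihood test, all 15 groups in 1 fit with 15 residual degrees of freedom, and p-values were adjusted over 22919 genes. The tests were tried on simulated data. Log2 CPM for the likeness to PER1 used a prior count of 2. No pair of samples was identical. Promoter sequences are RefSeq's, of GRCh38.p14. The members and gene lists were chosen with earlier results of these data known. All 10 members are named; of other clock genes, those called in the 4 leading comparisons; the 5 genes most like PER1; and FKBP5, TSC22D3, PRMT5 and PRMT1 as checks of the labels. Alternatives, all run on the count table, were DESeq2 1.42.0, its size factors in edgeR, total counts alone, no filter on low counts, the compared groups alone, a replicate block, no mitochondrial and ribosomal RNA genes, and each replicate left out. A further 10 comparisons among groups given Dex after an inhibitor were added after the data had been seen. Samples of the same number deviated together in few pairs of groups (correlation of deviations -0.451 to 0.487, median 0.0214, over 105 pairs), so that numbers were not taken to pair samples.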

Additional observations from a re-analysis of the deposited data

How the results depend on the processing

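Counts of called clock genes in the 28 planned comparisons stayed within 1.5 times under 171 of 195 alternative fits. These 171 include fits that gave 0 where the main fit also gave 0, so that they overstate how stable the comparisons with calls were. DESeq2 gave 1 in place of 3 for 3 h against 15 min of Dex, 2 in place of 4 for Dex with GSK591 against untreated, 0 for 2 of GSK591 at 2 days, 2 for 5 at 4 days and 1 for 2 at 7 days, 1 for 3 of MS023 at 4 days, 0 for 3 of GSK591 and 1 for 3 of MS023 from 4 to 7 days. The compared groups alone gave 1 in place of 3 for 15 min of Dex after GSK591, 0 for 1 of Dex with MS023 against Dex, 5 for 3 of MS023 at 2 days, 1 for 0 from 2 to 4 days of MS023 and 2 for 1 at 7 days. No filter gave 1 for 2 of GSK591 at 2 days. Total counts alone moved the median of all genes to between -1.07 and 1.02 and gave 1 for 3 of 15 min of Dex after GSK591, 0 for 3 between Dex times, 1 for 2, 3 for 5 and 1 for 2 of GSK591 at 2, 4 and 7 days, 5 for 3, 5 for 3 and 7 for 1 of MS023 at those times, 5 for 3 of GSK591 from 4 to 7 days, and 10 for 0 of GSK591 against MS023 at 7 days. Signs turned for PER1 with total counts alone at 2 and 7 days of MS023 (0.073 and 0.25) and for 15 min of Dex after MS023 against Dex (0.17), and for the uncalled PER2 interaction of MS023 with 3 h of Dex (-0.18) in leave-outs, which ran from -0.47 to 0.054 (0.054 without untreated replicate 1, 0.02 without Dex 3 h replicate 1). Size factors of DESeq2, the refit without mitochondrial and ribosomal RNA genes and the replicate block moved none of these counts; the block, with the numbers unpaired by the check of deviations, gave 2 clock genes at 15 min and 4 at 3 h of Dex. DESeq2 left the adjusted p of NR1D2 undefined for Dex with MS023 against Dex, so that it gave no count there. The cause of these changes was not tested.

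Leaving out 1 replicate gave 1 to 2 for 15 min of Dex, 0 to 3 between Dex times, 0 to 2 for Dex with MS023 against Dex, 2 to 3 for Dex with GSK591 against untreated, 0 to 1, 1 to 4 and 1 to 2 for GSK591 at 2, 4 and 7 days, 1 to 3, 1 to 2 and 0 to 1 for MS023 at those times, 0 to 0 and 0 to 2 from 4 to 7 days of GSK591 and MS023, 1 to 2 for 15 min of Dex after GSK591, and 0 to 1 for the interaction of GSK591 with 3 h of Dex. Of 81 called results over all 38 comparisons, 33 were kept in every fit and leave-out, 13 of them PER1. PER3, TEF and CRY1 had 13 to 108 counts a sample, and their number limits the precision of the values.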
